A study of Homo sapiens with 6 samples.

Results

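The enzymes described here are the 36 genes that run the tricarboxylic acid (TCA) cycle or feed pyruvate, malate and glutamate carbon into it, with ATP citrate lyase at its cytosolic exit. They were chosen by gene symbol alone, and each symbol matched 1 of 20036 rows of the deposited expression table. Their transcripts were counted in PANC-1, an established line of human pancreatic cancer cells, with 3 libraries from cells given an empty (null) virus and 3 from cells given a lentivirus that knocks down SHMT2. SHMT2 is the mitochondrial serine hydroxymethyltransferase, and both groups are the same line and differ in the virus alone, as far as the labels say. The labels give no time after infection, hairpin sequence, number of hairpins, clone or medium, and do not say whether replicates were separate cultures. The tests below therefore see no more than the variation among these 6 libraries, part or all of which could be technical.

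As background, acetyl-CoA made from pyruvate by the pyruvate dehydrogenase complex joins oxaloacetate to form citrate, which the cycle oxidises stepwise back to oxaloacetate while reducing NAD and FAD for the respiratory chain. Kinases switch pyruvate dehydrogenase off by phosphorylation and phosphatases switch it on again. Proliferating tumour cells also draw citrate, aspartate and glutamate out of the cycle for synthesis and refill it from glutamine through glutamate.

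Library totals ran from 15405884 to 19075734 counts, and the 36 genes took 0.305% to 0.335% of them. SHMT2 had 2113 to 2417 counts per control library and 56 to 139 per knockdown library. The keratins KRT8 and KRT18, epithelial markers, had at least 13192 and 4855 counts in every library. In CPM, which are counts relative to the library total, the summed level of 5 epithelial markers was 1160 to 1520 in control and 1720 to 2220 CPM in knockdown libraries. Among them KRT8 and KRT19 rose and EPCAM fell, KRT19 from 0 to 4 counts up to 900 to 1523 counts. Lists of 3 immune, 2 endothelial, 4 acinar and 3 endocrine markers each summed to at most 0.549 CPM in any library, with PRSS1, CPA1, AMY2A and INS at 0 throughout. Of 4 fibroblast markers DCN was at 0, and the list summed to 78.2 to 92.2 CPM in control and 42.1 to 47.5 CPM in knockdown libraries, nearly all of it COL1A1. What part these markers' changes have in the values below was not tested. In each group 1 library lay far from the other 2: control replicate 1 (chi-square per gene of 26.0 and 31.09 against the others, which were 2.07 from each other) and knockdown replicate 2 (74.65 and 76.35, against 2.46). Also, 10.42% of the counts of knockdown replicate 2 came from mitochondrially encoded genes against 4.72% to 6.86% elsewhere. Estimates for the enzymes without these 2 libraries stand in the plot of fold changes and, where the call or direction differs, in the text.

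Of the 36 genes, 35 had enough counts to be tested, the exception being OGDHL. In the knockdown libraries 11 were higher (31.4% of those tested) and 10 lower (28.6%) at an adjusted p below 0.05 in edgeR's quasi-likelihood test with Benjamini-Hochberg adjustment over 12292 genes, and such genes are said to have risen, fallen or been called. Among all tested genes 26.7% were higher and 25.1% lower. In both directions together 60.0% of these enzymes were called beside 51.8% of all genes, so the number of calls does not set them apart. Likewise, the groups did not overlap in 23 of the 35 (65.7%), against 61.4% of all genes, and the median log2 fold change was 0.02 against 0.00 for all genes. Without the 2 libraries that stood apart, 14 were higher and 14 lower, where 36.9% and 36.7% of all genes were. The genes that fell included citrate synthase, subunits of the isocitrate and 2-oxoglutarate dehydrogenases and the aspartate aminotransferases. Those that rose included 3 kinases of pyruvate dehydrogenase and its phosphatase PDP1, cytosolic isocitrate dehydrogenase and mitochondrial phosphoenolpyruvate carboxykinase.

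**Figure D1:**
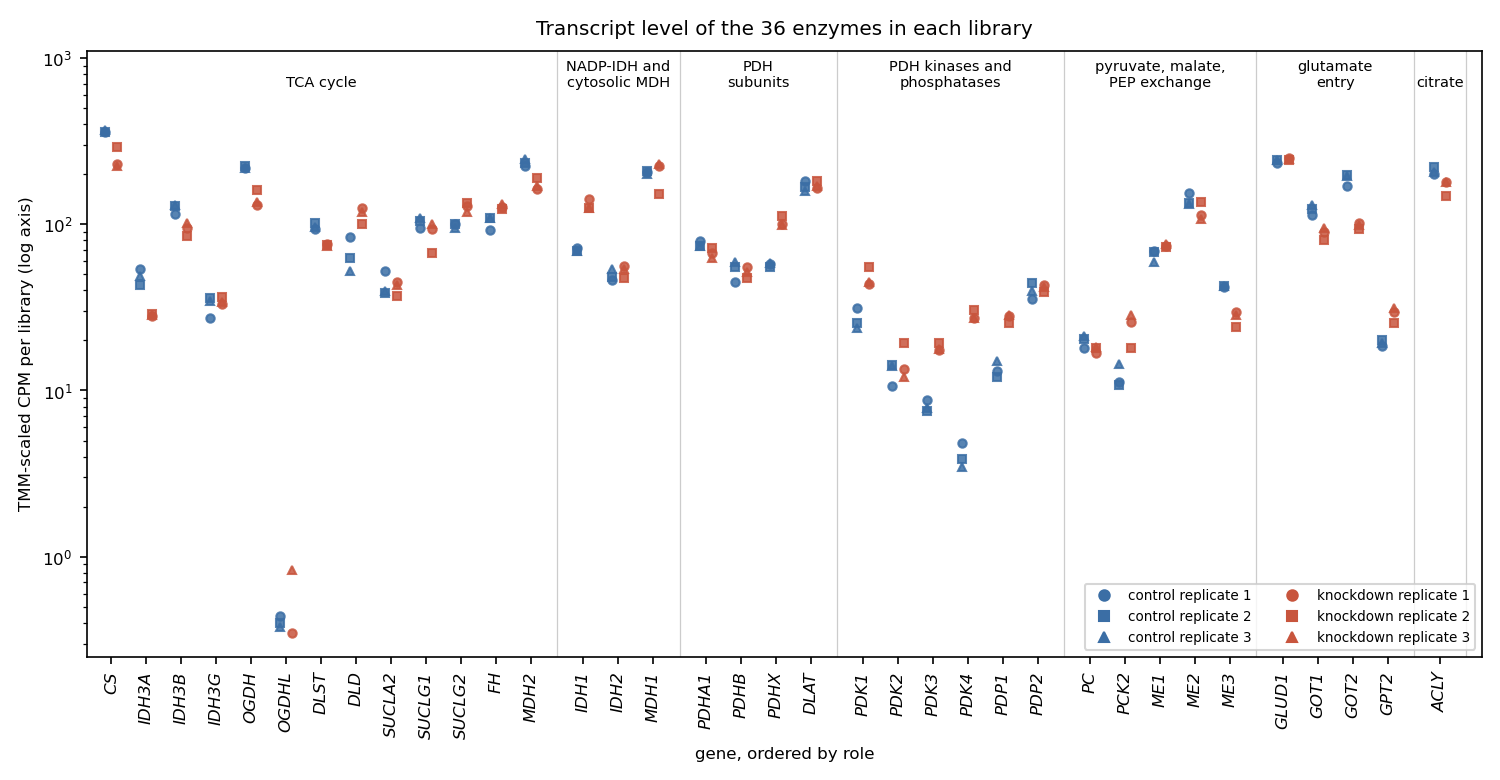
Level of each of the 36 genes in each library, in CPM scaled by TMM factors (y axis, log scale), with genes ordered by role along the x axis, control libraries in blue, knockdown libraries in red and a symbol for each replicate number. In control libraries CS has the highest mean (362 CPM) and OGDHL, whose value of 0 in knockdown replicate 2 is not drawn, the lowest; the groups are farthest apart for PDK4, at 3.48 to 4.85 against 27.2 to 30.5 CPM.

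Per length of transcript, in FPKM (as deposited, counts divided by gene length and library total), the most abundant of these transcripts in the control cells were MDH2 (62.5 ± 2.50, SD, n = 3) and CS (54.9 ± 0.608). GOT1 (49.0 ± 2.97), GOT2 (48.6 ± 4.07) and IDH3B (47.0 ± 2.97) came next and did not differ from one another beyond their spread. At the other end, PDK4 (0.870 ± 0.156), PDK3 (0.448 ± 0.0403) and OGDHL (0.0691 ± 0.00566) were the scarcest on deposited lengths. In the knockdown cells MDH2 (49.3 ± 2.08) was still first, followed by SUCLG2 (42.3 ± 1.61), MDH1 (41.8 ± 10.3) and CS (39.9 ± 3.92), which did not differ beyond their spread. The deposited gene lengths of PDK3 (17456 bases), GLUD1 (14283) and FH (9350) far exceed the exon bases of GENCODE 29 (4951, 3519 and 2142). The FPKM of these genes would be higher on GENCODE lengths, that of PDK3 at 1.58 ± 0.142 and thus above PDK4. For GOT1 the deposited 2424 bases fall short of 3369 in GENCODE 29, so its FPKM would be lower. The order of abundance above therefore holds on deposited lengths alone. On GENCODE lengths GLUD1 and FH could rank among or above the genes named as most abundant, and GOT1 below its place. The fold changes below use no gene length unless they are said to be corrected for it.

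**Figure D2:**
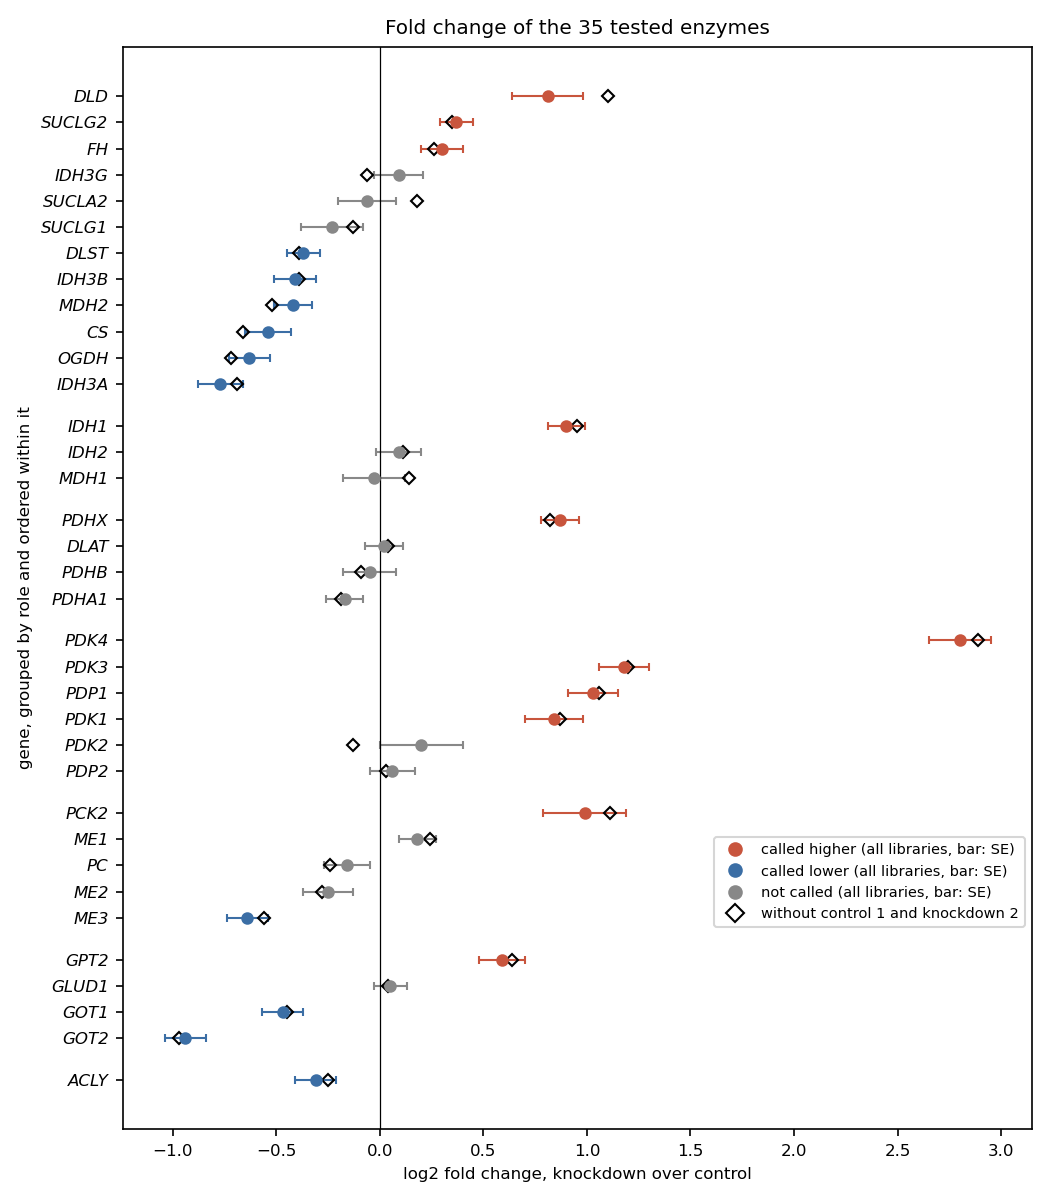
Log2 fold change, knockdown over control (x axis), of the 35 tested genes, grouped by role; filled circles with bars are edgeR estimates and standard errors from all 6 libraries and open diamonds the estimates without control replicate 1 and knockdown replicate 2. The widest gap between circle and diamond among called genes is that of DLD (0.81 and 1.10), and the diamond of PDK2 lies on the other side of 0 (0.20 and -0.13).

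In the cycle proper, 6 of 12 tested genes fell (50.0%, beside 25.1% of all genes), namely CS, IDH3A, IDH3B, OGDH, DLST and MDH2. DLD, SUCLG2 and FH rose (25.0%, beside 26.7%), and the other 3 were not called. The median log2 fold change was -0.30, or -0.21 after correction for length. Citrate synthase CS, which condenses acetyl-CoA with oxaloacetate, stood at 359, 358 and 368 CPM in control replicates 1 to 3 and at 231, 290 and 225 CPM in knockdown replicates 1 to 3. All knockdown values lay below all control values, with knockdown replicate 2 nearest to them. This was a log2 fold change of -0.54 (SE 0.11, adjusted p = 0.00547, edgeR). MDH2, the mitochondrial malate dehydrogenase that closes the cycle, changed by -0.42 (SE 0.09), from 234 ± 10.8 to 175 ± 14.7 CPM (SD, n = 3).

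NAD-dependent isocitrate dehydrogenase, an enzyme of the cycle that makes 2-oxoglutarate, is built from a catalytic alpha and the beta and gamma subunits. Its catalytic subunit IDH3A was at 53.5, 43.0 and 48.5 CPM in the control and at 28.1, 28.7 and 28.4 CPM in the knockdown replicates. The knockdown values were within 1 CPM of each other and well below the controls (log2 fold change -0.77, SE 0.11, adjusted p = 0.000847, edgeR). In the annotation, 38.9% of the exon bases of IDH3A are shared with ACSBG1 and CIB2 on the opposite strand. ACSBG1 had at most 10 counts in a library and CIB2 was at 23.2 ± 1.07 and 16.5 ± 3.10 CPM, and their part in the IDH3A value was not tested. IDH3B fell by 0.41 (SE 0.10), from 124 ± 8.52 to 93.7 ± 8.34 CPM, and its value was -0.24 after correction for length. IDH3G was not called, at 27.3, 36 and 34.4 CPM in control and 33.3, 36.7 and 34.0 CPM in knockdown libraries, where the groups overlap (log2 fold change 0.09, adjusted p = 0.569, edgeR). By FPKM, IDH3G thus made up 16.2% to 19.2% of the subunits' transcripts in the control and 22.4% to 26.7% in the knockdown libraries, and IDH3A 9.07% to 12.5% and 7.39% to 8.27%.

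The 2-oxoglutarate dehydrogenase complex moved in opposite directions by subunit. Its first component OGDH, which decarboxylates 2-oxoglutarate, had 219, 223 and 219 CPM in control and 130, 160 and 137 CPM in knockdown replicates, a log2 fold change of -0.63 (SE 0.10, adjusted p = 0.00151, edgeR). The succinyltransferase core DLST fell less, by 0.37 (SE 0.08), from 97.2 ± 4.60 to 75.3 ± 1.23 CPM. DLD, the lipoamide dehydrogenase that this complex shares with pyruvate dehydrogenase and the glycine cleavage system, rose instead, from 83.3, 62.7 and 52.6 to 126, 101 and 119 CPM in replicates 1 to 3. Control replicate 1 was the highest control and knockdown replicate 2 the lowest knockdown value, so those 2 libraries lay only 0.28 apart on the log2 scale and the others 1.09. The estimate was 0.81 with all libraries (SE 0.17, adjusted p = 0.00627, edgeR) and 1.10 without those 2. The opposite-strand gene LAMB1, which rose 3.12-fold, covers 1.3% of the exon bases of DLD. OGDHL, a paralog of OGDH, was nearly silent, with 7, 6 and 6 counts in the control and 7, 0 and 16 in the knockdown libraries.

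Succinate-CoA ligase pairs one alpha subunit, SUCLG1, with a beta subunit that decides whether ATP (SUCLA2) or GTP (SUCLG2) is formed. The GTP-type SUCLG2 rose from 100, 99.7 and 94.6 to 128, 134 and 119 CPM (log2 fold change 0.37, SE 0.08, adjusted p = 0.00812, edgeR), with no overlap between groups. SUCLA2 was not called, at 52.0, 38.5 and 39.5 against 45.0, 37.0 and 42.9 CPM. SUCLG1 was not called either, at 94.7, 104 and 109 against 94.1, 67.0 and 101 CPM. The groups overlap in both, and only without control replicate 1 and knockdown replicate 2 together was SUCLA2 called higher (0.18) and SUCLG1 lower (-0.13). SUCLG2 was the main beta transcript in every library, with 84.7% to 88.2% of the FPKM of both in the control and 88.8% to 91.3% in the knockdown libraries. FH, fumarase, was higher by 0.30 (SE 0.10, adjusted p = 0.0309, edgeR), at 103 ± 9.49 and 127 ± 4.76 CPM. That call was lost with upper-quartile factors, with the replicate number as a block and without any 1 of control replicates 2 and 3 and knockdown replicates 1 and 3 (adjusted p up to 0.0949). Its value was 0.17 after correction for its deposited length.

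Isocitrate dehydrogenases that use NADP sit outside the oxidative step, IDH1 in the cytosol and peroxisomes and IDH2 in mitochondria, and both can run in reverse to make citrate from glutamine carbon. IDH1 (chromosome 2, 208236229 to 208266074, minus strand) rose 1.87-fold, from 72.0, 69.2 and 69.4 CPM to 141, 126 and 126 CPM in replicates 1 to 3. Both groups were tight and far apart, with a log2 fold change of 0.90 (SE 0.09, adjusted p = 0.000173, edgeR). IDH2 was not called, at 46.0, 48.2 and 53.7 against 56.0, 47.5 and 54.0 CPM (log2 fold change 0.09, SE 0.11). Cytosolic malate dehydrogenase MDH1, an arm of the malate-aspartate shuttle, had 205, 208 and 202 CPM in control and 223, 153 and 229 CPM in knockdown libraries, where replicate 2 alone fell below the controls. Its log2 fold change was -0.03 (adjusted p = 0.899) with all libraries and 0.14 (adjusted p = 0.00108) without control replicate 1 and knockdown replicate 2, in edgeR, so its direction depends on those libraries.

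Pyruvate dehydrogenase also holds DLD, which rose and is given above with the cycle. Of its other 4 subunit genes 1 was called higher (25.0%, beside 26.7% of all genes in edgeR) and 0 lower (beside 25.1%) in edgeR, DESeq2 and limma-voom. At an unadjusted p below 0.05, 0 were lower as well. The one of these 4 that rose was PDHX, the E3-binding protein that anchors DLD to the core (chromosome 11, 34915829 to 35020591, plus strand). It stood at 57.6, 55.3 and 58.5 CPM in control and 101, 112 and 99.3 CPM in knockdown libraries, a log2 fold change of 0.87 (SE 0.09, adjusted p = 0.000229, edgeR). Opposite-strand APIP, on 6.9% of its exon bases, was at 25.9 ± 2.19 and 34.7 ± 4.70 CPM. PDHA1, the E1 alpha subunit that is phosphorylated, had 78.9, 73.9 and 74.5 against 67.3, 71.6 and 62.7 CPM; the groups did not overlap, but the change of -0.17 (SE 0.09) was not called (adjusted p = 0.134, edgeR) except without knockdown replicate 2, alone or together with control replicate 1. Opposite-strand MAP3K15, on 21.3% of its exon bases, was at 5.28 ± 0.719 and 5.51 ± 1.77 CPM. Its partner PDHB lay at 45.0, 55.2 and 59.7 against 55.6, 47.5 and 51.7 CPM. The acetyltransferase core DLAT lay at 183, 168 and 159 against 165, 183 and 170 CPM, and the groups overlap in both. With DLD, the FPKM of these subunits summed to between 72.2 and 79.7 in the control and between 96.6 and 105 in the knockdown libraries. Within that sum PDHX went from 19.0% to 21.0% in control up to 27.3% to 30.5% in knockdown libraries, while PDHA1 went from 19.5% to 20.1% down to 13.2% to 14.6%. On GENCODE 29 lengths PDHX had 15.9% to 17.8% and 24.0% to 26.4%.

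The enzymes that switch pyruvate dehydrogenase off and on included the 3 widest fold changes over all 6 libraries, those of PDK4, PDK3 and PDP1. Without control replicate 1 and knockdown replicate 2, PCK2 (1.11) and DLD (1.10) exceeded PDP1 (1.06), and after correction for length PCK2 (1.06), PDHX (0.96) and IDH1 (0.94) exceeded PDK3 (0.88). Of 4 kinases and 2 phosphatases, PDK4, PDK3, PDK1 and the phosphatase PDP1 rose at least 1.5-fold, where 18.8% of all tested genes did so. Among these 0 fell in edgeR, DESeq2 or limma-voom or at an unadjusted p below 0.05, beside 25.1% of all genes called lower in edgeR. PDK4 is the kinase known for its induction by fasting and fatty acids (chromosome 7, 95583499 to 95596516, minus strand). It had 77, 58 and 55 counts in control and 548, 499 and 525 counts in knockdown replicates, which is 4.85, 3.87 and 3.48 against 27.2, 30.5 and 27.2 CPM. The gap between groups was several times the spread within either, with a log2 fold change of 2.80 (SE 0.15, 6.94-fold, adjusted p = 1.41e-05, edgeR). PDK3, another isozyme (chromosome X, 24465244 to 24550466, plus strand), rose from 8.81, 7.48 and 7.85 to 17.5, 19.4 and 17.8 CPM (log2 fold change 1.18, SE 0.12, adjusted p = 0.000234, edgeR). PDK1, a kinase known as a target of hypoxia-inducible factor (chromosome 2, 172555373 to 172608669, plus strand), rose from 31.5, 25.3 and 23.7 to 44.0, 55.0 and 45.0 CPM (log2 fold change 0.84, SE 0.14, adjusted p = 0.00227, edgeR). By deposited length PDK3 and PDK1 are long genes, and across the table long genes had higher fold changes, from a median of -0.28 in the shortest to 0.27 in the longest decile. After correction for length their values were 0.88 and 0.58, and that of PDK4 was 2.84. The value for PDK3 rests on its deposited 17456 bases, against 4951 in GENCODE 29.

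PDK2, the broadly expressed kinase, was not called, at 10.7, 14.2 and 14 against 13.5, 19.2 and 12.1 CPM, with the highest value in knockdown replicate 2. Its log2 fold change of 0.20 (SE 0.20) turned to -0.13 without control replicate 1 and knockdown replicate 2. Opposite-strand SAMD14, on 38.6% of its exon bases, was at 0.560 ± 0.218 and 1.61 ± 0.538 CPM. By FPKM, PDK4 made up 14.3% to 18.9% of the kinases' sum in control and 44.6% to 48.9% in knockdown libraries, and PDK2 34.6% to 47.6% and 18.1% to 23.3%. On GENCODE 29 lengths, chosen after seeing the data, the share of PDK4 was 11.9% to 15.5% in control and 37.8% to 40.5% in knockdown libraries, and that of PDK2 28.2% to 39.3% and 14.9% to 19.6%. On the deposited lengths the kinases' summed FPKM was 5.18 to 5.52 in control and 12.9 to 14.7 in knockdown libraries. On the side of the phosphatases, which reactivate the complex, the calcium-stimulated PDP1 rose as well, from 13.1, 12.1 and 15.0 to 28.1, 25.5 and 28.4 CPM (log2 fold change 1.03, SE 0.12, adjusted p = 0.000388, edgeR). PDP2 was not called, at 35.3, 44.2 and 39.8 against 43.4, 39.2 and 41.8 CPM, and the summed FPKM of both phosphatases was 6.48 to 7.32 in control and 9.11 to 10.9 in knockdown libraries.

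**Figure D3:**
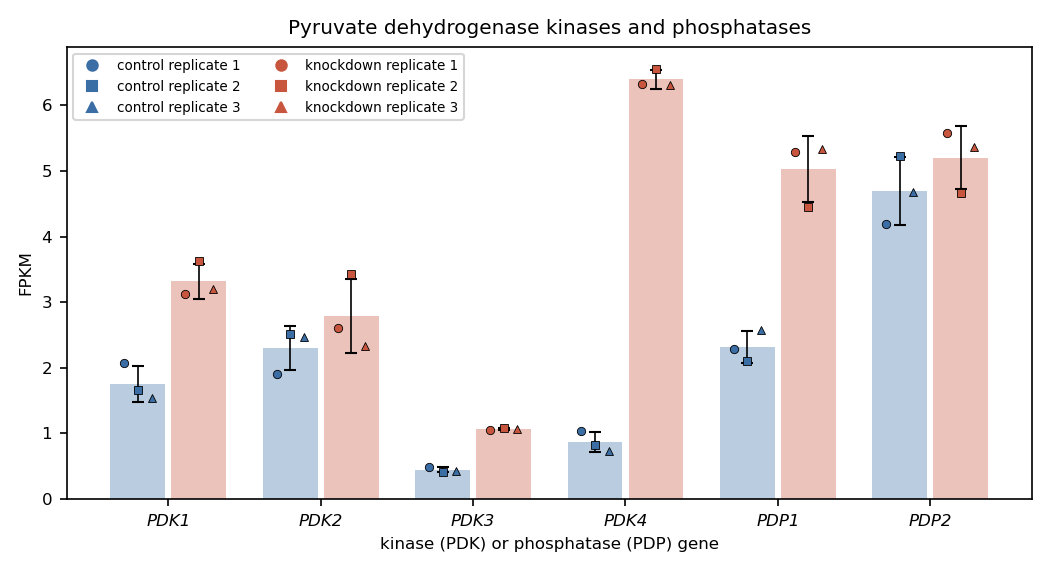
FPKM (y axis) of the pyruvate dehydrogenase kinases PDK1 to PDK4 and phosphatases PDP1 and PDP2 in control (blue) and knockdown (red) libraries; bars are means of 3 libraries, error bars the SD and symbols the single libraries. PDK4 was at 0.870 FPKM in control, below PDK1 and PDK2, and at 6.40 FPKM in knockdown libraries, above the other kinases, while the place of PDK3 rests on its long deposited length (1.58 FPKM in control on GENCODE 29 length). PDK2 and PDP2 overlap between groups.

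The promoters of the kinases that rose, and of GOT2, whose fall of 0.94 was the greatest among these enzymes, are shown so that their sequence can be read beside these values. Each is the 250 bases before a transcription start, from RefSeq on GRCh38.p14, with letters in capitals where a script found one of 6 motifs on either strand: ACGTG and GCGTG (cores of the hypoxia response element), TGATGNAA (the amino acid response element bound by ATF4), TNAAGGTCA (estrogen-related receptor), TGCGCANGC (NRF1) and TCACNCCAC (a sterol element). The letters CACGTG hold ACGTG on both strands, and TGCGCANGC can overlap GCGTG. They lie at chr7:95596517-95596766 on the minus strand (PDK4), chrX:24465036-24465285 on the plus strand (PDK3), chr2:172555840-172556089 on the plus strand (PDK1, the downstream of 2 starts) and chr16:58734317-58734566 on the minus strand (GOT2).
PDK4: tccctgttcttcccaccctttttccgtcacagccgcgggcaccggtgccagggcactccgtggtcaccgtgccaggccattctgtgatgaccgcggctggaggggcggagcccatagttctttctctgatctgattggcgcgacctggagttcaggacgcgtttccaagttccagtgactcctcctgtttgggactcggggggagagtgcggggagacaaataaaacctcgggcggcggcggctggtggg
PDK3: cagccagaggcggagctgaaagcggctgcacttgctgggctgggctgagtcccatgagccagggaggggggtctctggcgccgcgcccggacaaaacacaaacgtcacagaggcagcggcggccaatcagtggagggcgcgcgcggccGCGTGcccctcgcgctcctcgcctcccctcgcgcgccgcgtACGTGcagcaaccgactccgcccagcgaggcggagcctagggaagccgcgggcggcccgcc
PDK1: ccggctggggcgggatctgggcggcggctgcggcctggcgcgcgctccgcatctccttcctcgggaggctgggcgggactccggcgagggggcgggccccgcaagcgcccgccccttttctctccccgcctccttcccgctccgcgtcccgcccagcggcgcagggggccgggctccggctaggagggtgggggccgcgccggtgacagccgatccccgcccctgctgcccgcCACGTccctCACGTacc
GOT2: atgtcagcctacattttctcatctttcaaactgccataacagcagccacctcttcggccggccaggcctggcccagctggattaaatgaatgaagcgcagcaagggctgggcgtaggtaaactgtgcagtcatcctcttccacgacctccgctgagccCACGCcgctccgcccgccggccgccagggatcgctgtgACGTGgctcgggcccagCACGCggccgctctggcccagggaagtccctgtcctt
PDK4, with the widest rise, held none of the 6 motifs in this window, and neither did the upstream window of PDK1. The downstream window of PDK1 held ACGTG 2 times on the reverse strand, starting 17 and 8 bases before the start, and PDK3 held ACGTG 61 and GCGTG 102 bases before it. GOT2, which fell, held ACGTG 1 time and GCGTG 2 times.

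Over all windows, 33 of the 36 genes matched the table with 46 windows, some of which overlap within a gene. ACGTG was in 14 of them (30.4%) against 18.5% of all 35116 windows, and GCGTG in 24 (52.2%) against 32.2%, with a median GC content of 66.2% against 58.0%. Windows of genes that rose held ACGTG in 4 of 13 and GCGTG in 5 of 13, those of genes that fell in 3 of 12 and 9 of 12. Windows of tested genes that were not called held them in 6 of 19 and 10 of 19. TGATGNAA was found in GOT1 alone (2.2% of windows against 3.1% of all), TGCGCANGC in DLD, IDH3B and IDH3G (6.5% against 3.7%), and TNAAGGTCA and TCACNCCAC in none (0.854% and 0.883% of all windows). A match of letters is no evidence of binding, and a missing match says only that these letters are not in this window.

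Enzymes that exchange pyruvate, malate and phosphoenolpyruvate with the cycle gave 1 rise and 1 fall among 5 genes. Of all tested genes 26.7% were called higher and 25.1% lower, so neither count stands above the share of all genes. PCK2, the mitochondrial phosphoenolpyruvate carboxykinase and a known ATF4 target, rose from 11.2, 10.8 and 14.5 to 25.9, 17.9 and 28.4 CPM in replicates 1 to 3 (log2 fold change 0.99, SE 0.20, adjusted p = 0.00481, edgeR). Knockdown replicate 2 was the lowest of its group but still above all controls. The cytosolic isozyme PCK1 had 1 count in all libraries together. ME3, a mitochondrial malic enzyme that uses NADP, fell from 41.9, 42.8 and 42.8 to 29.5, 24.1 and 28.5 CPM (log2 fold change -0.64, SE 0.10, adjusted p = 0.00192, edgeR), with no overlap. ME1, the cytosolic malic enzyme and a source of NADPH, was the most abundant of the malic enzymes per length, and ME2 the mitochondrial one that uses NAD. Neither was called with all libraries (ME1 65.5 ± 5.28 and 74.3 ± 1.81 CPM, ME2 140 ± 12.3 and 118 ± 15.3 CPM). Without control replicate 1 and knockdown replicate 2, ME1 was called higher (0.24) and ME2 lower (-0.28), the latter also without knockdown replicate 2 alone. Pyruvate carboxylase PC, which makes oxaloacetate directly from pyruvate, was at 17.9, 20.4 and 21.2 against 16.9, 18.1 and 18.3 CPM, with no call (adjusted p = 0.25, edgeR) except without control replicate 1 and knockdown replicate 2 together (-0.24). Opposite-strand LRFN4, on 10.5% of its exon bases, was at 22.5 ± 2.50 and 9.93 ± 1.47 CPM.

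Glutamate enters the cycle as 2-oxoglutarate, either by deamination or by transamination. The aspartate aminotransferases of both compartments were lower. Mitochondrial GOT2 (chromosome 16, 58707131 to 58734342, minus strand) fell from 169, 199 and 195 to 102, 93.5 and 98.9 CPM, a log2 fold change of -0.94 (SE 0.10, 1.92-fold, adjusted p = 0.000228, edgeR). Cytosolic GOT1, which turns aspartate back into oxaloacetate, fell from 114, 123 and 130 to 89.3, 80.0 and 95.4 CPM (-0.47, SE 0.10), with a value of -0.30 after correction for length. The enzymes that fell at least 1.5-fold were 4 in number, GOT2, IDH3A, OGDH and ME3, where 15.4% of all tested genes fell as far. The mitochondrial alanine aminotransferase GPT2 rose instead, from 18.5, 20 and 19.4 to 29.7, 25.5 and 31.5 CPM (log2 fold change 0.59, SE 0.11, adjusted p = 0.00386, edgeR), while the cytosolic isozyme GPT had at most 6 counts in a library. Glutamate dehydrogenase GLUD1 was level at 233, 244 and 243 against 252, 243 and 248 CPM (log2 fold change 0.05, SE 0.08). That level is uncertain, since reads could be split with the near-identical copy GLUD2 (3 to 8 counts) or come from opposite-strand SHLD2 (13.2% of its exon bases). ACLY, which splits exported citrate into cytosolic acetyl-CoA and oxaloacetate, was lower by 0.31 (SE 0.10), from 200, 221 and 206 to 179, 147 and 179 CPM (adjusted p = 0.0355, edgeR). Its call was lost with the replicate block, with library size alone, with limma on log2(FPKM + 1) and without any 1 of control replicates 2 and 3 and knockdown replicates 1 and 3 (adjusted p up to 0.16).

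Ratios of 2 genes within a library do not depend on how libraries are scaled to each other. Of 8 ratios of FPKM computed, 6 did not overlap between groups, each with an exact 2-sided permutation p of 0.10, the smallest that 3 against 3 libraries allow, and an adjusted p of 0.133, so none could pass 0.05. IDH1 to IDH2 was 0.927, 0.852 and 0.767 in control and 1.49, 1.57 and 1.39 in knockdown libraries. Per deposited length (4699 and 2787 bases), the mitochondrial transcript was thus the more abundant one in every control and the cytosolic one in every knockdown library. In CPM, which use no length, IDH1 was above IDH2 in every library, so the crossing rests on the lengths. GOT1 to GOT2 was 1.05, 0.952 and 1.03 against 1.36, 1.32 and 1.49, and these values would be lower on the GENCODE 29 length of GOT1. ME1 to ME2 was 2.13, 2.41 and 2.13 against 3.11, 2.56 and 3.41. MDH1 to MDH2 was 0.667, 0.651 and 0.6 against 0.998, 0.583 and 0.981, where knockdown replicate 2 lay below the controls and the groups overlap (exact p = 0.40). SUCLA2 to SUCLG2 (0.153 ± 0.0240 and 0.115 ± 0.0163, SD, n = 3), PDK1 to PDK3 (3.91 ± 0.332 and 3.09 ± 0.216) and OGDH to DLST (1.98 ± 0.0747 and 1.65 ± 0.190) were lower in the knockdown libraries without overlap. The level of PDK1 to PDK3 rests on the long deposited length of PDK3. On GENCODE 29 lengths the mean FPKM of PDK1 and PDK3 was 1.75 and 1.58 in control and 3.31 and 3.78 in knockdown libraries. The log2 difference of SUCLA2 to SUCLG2, -0.42 with all libraries, was -0.17 without control replicate 1 and knockdown replicate 2, and that of MDH1 to MDH2 went from 0.38 to 0.66. PDHA1 to PDHB overlapped, at 1.38 ± 0.257 and 1.25 ± 0.163 (exact p = 0.50).

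**Figure D4:**
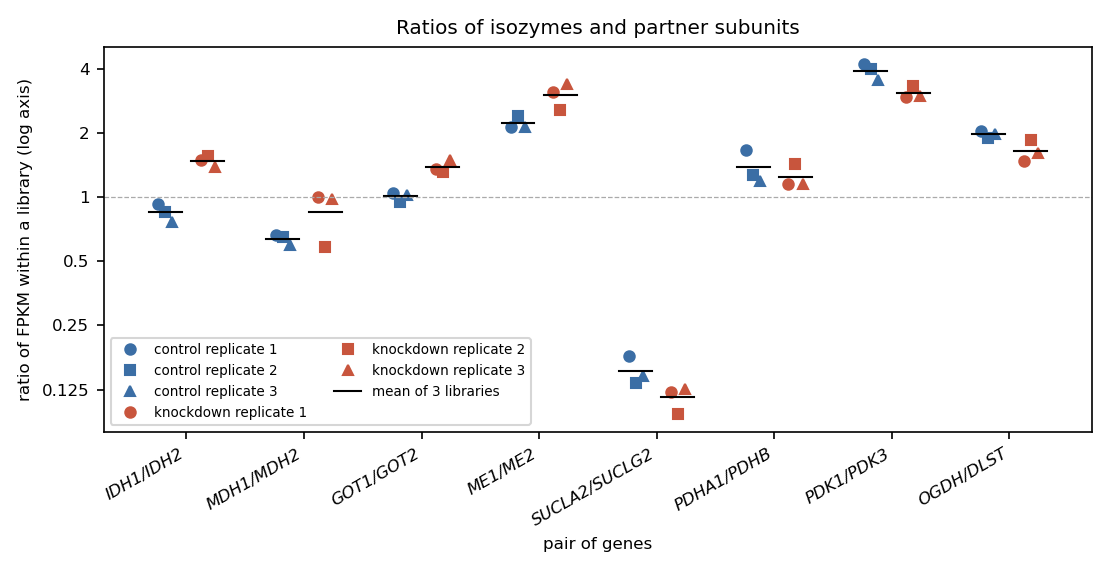
Ratio of the FPKM of 2 genes within each library (y axis, log scale) for 8 pairs of isozymes or partner subunits, control in blue and knockdown in red, with a symbol per replicate number and a line at the mean of 3 libraries; the dashed line marks a ratio of 1. IDH1 to IDH2 crosses it, from at most 0.927 in control to at least 1.39 in knockdown libraries, and MDH1 to MDH2 overlaps through knockdown replicate 2. Where a pair lies against that line rests on the deposited gene lengths, for PDK1 to PDK3 on the long one of PDK3.

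A list of 39 other genes of the pathway holds carriers, cofactor enzymes and neighbouring steps. Of the 34 tested, 13 fell (38.2%, beside 25.1% of all genes) and 4 rose (11.8%, beside 26.7%), with a median log2 fold change of -0.16. With library size alone or by limma on log2(FPKM + 1) 7 fell, with the replicate block 8, and without either control replicate 2 or control replicate 3 the number was 8. Calls among all genes were fewer under these settings too, as given in the closing section. The median was -0.10 without the 2 libraries that stood apart and -0.07 after correction for length. SDHB, the iron-sulfur subunit of succinate dehydrogenase, stood at 188 ± 6.64 CPM in control and 132 ± 13.4 CPM in knockdown libraries (SD, n = 3) and fell by 0.51 on the log2 scale (SE 0.10, adjusted p = 0.00389, edgeR). Cytosolic ACO1, SDHC and SDHD were not called with all libraries, but SDHD was called higher (0.32) without knockdown replicate 2 and control replicate 1, or without the former alone. SDHA, at 2.59 ± 0.938 and 2.30 ± 0.357 CPM, has near-identical pseudogenes, so its level is uncertain.

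Among genes for pyruvate supply and cofactors, LDHA, which turns pyruvate into lactate, rose from 1740 ± 45.3 to 2720 ± 169 CPM (0.65, SE 0.09) and LIPT1, a lipoyl transferase for the 2-oxoacid dehydrogenases, from 1.60 ± 0.187 to 5.51 ± 0.596 CPM (1.77, SE 0.19). LIAS, the lipoyl synthase, was lower by 0.40 (adjusted p = 0.0401, edgeR), a call lost under 7 of 15 alternatives, among them each of control replicates 2 and 3 and knockdown replicates 1 and 2 left out. The subunits of the mitochondrial pyruvate carrier, MPC1 (15.3 ± 1.49 and 12.9 ± 0.344 CPM) and MPC2 (24.1 ± 6.67 and 20.6 ± 2.78 CPM), were called lower only without control replicate 1, alone or with knockdown replicate 2. LDHB lay at 1.33 ± 0.278 and 1.54 ± 0.566 CPM.

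For glutamine entry, the transporter SLC1A5 fell from 146 ± 2.75 to 103 ± 10 CPM (-0.50, SE 0.10). ALDH5A1, of the GABA shunt, fell by 0.58. ABAT was lower by 0.81, a call lost under 8 of 15 alternatives, each library but knockdown replicate 3 left out included. Glutamine synthetase GLUL had at most 6 counts in a library. Of 7 carriers of cycle intermediates, 0 rose in edgeR, DESeq2 and limma-voom or at an unadjusted p below 0.05, beside 26.7% of all genes called higher in edgeR. In the same tools 3 carriers fell (42.9%, beside 25.1% of all genes in edgeR). They were the 2-oxoglutarate carrier SLC25A11 (-0.60) and the aspartate-glutamate carriers SLC25A12 (-0.35) and SLC25A13 (-0.31). The last 2 calls were lost with library size alone and by limma on log2(FPKM + 1), the former also without knockdown replicate 3 and the latter without control replicate 2 or 3 or with the replicate block. The citrate carrier SLC25A1 was at 30.6 ± 1.92 and 30.2 ± 5.76 CPM. For acetyl-CoA, ACSS1 and ACAT1 rose (0.44 and 0.48) and ACAT2 and ACACA fell (-0.46 and -0.27), the ACSS1 call lost under 4 and the ACACA call under 7 of 15 alternatives. Both were lost without control replicate 3 and without knockdown replicate 1 or 3, and that of ACACA also without control replicate 2.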

How the data were processed

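RNA was measured by sequencing in 6 libraries made, per the labels' protocols, from TRIzol total RNA with the NEBNext Ultra II RNA kit, which were grouped by sample titles. The authors deposited whole-number read counts and FPKM per gene, per the file headers. Counts, lengths and totals of the deposited table give its FPKM values back (greatest difference 3.8e-06), so FPKM carries no further scaling between libraries. No header or label names the aligner, counter, build or strandedness (not given in the sources used here). By coordinates, 29 of the 36 genes share a start or end with GENCODE 29 on GRCh38, and those printed are the table's. Without a strand setting, reads of overlapping opposite-strand genes cannot be told apart.

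Counts were filtered with filterByExpr, scaled by TMM and tested with edgeR 4.0.16 (R 4.3.3) without covariates. CPM is scaled by the TMM-adjusted library total, and each standard error was taken as the size of the log2 change over the root of F. On simulated counts for 12166 genes, 49 or 50 were changed at each of 1.5-, 2-, 4- and 8-fold. The test recovered 16% of those changed 1.5-fold, 74% at 2-fold and 98% at 4-fold, with 4.6% of calls false. That simulation changed far fewer genes than the 51.8% called in the data and had no library that stood apart. Its rates therefore need not hold for the calls given here. The genes, the lists, the alternatives and the rule for naming (every gene described here, SHMT2 and called genes of the neighbouring list) were chosen with earlier results of these data known. Values per library follow a rule too: genes called at 1.5-fold or more, the extremes of each role, and uncalled subunits beside called ones. Alternatives were other scaling, no filter, DESeq2 1.42.0, limma 3.58.1, the replicate number as a block, each library left out, both libraries that stood apart left out, and a length trend (mgcv 1.9.3). Differences between control replicate 1 and knockdown replicate 2 alone, and shares on GENCODE 29 lengths, were added after seeing the data. No column of another sample was present. Some genes of the neighbouring list are counted but not reported here by name.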

Additional observations from a re-analysis of the deposited data

How the results depend on the processing

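Of the 21 called genes, 19 were called in the same direction under all 15 alternatives with a test; FH and ACLY were not, as given with their values. At a threshold of 2-fold, 3 genes were higher and 0 lower in edgeR (0 also at an unadjusted p below 0.05 and by DESeq2 and limma-voom). The shares of all tested genes at 2-fold were not counted, so these numbers cannot be set against them. The other genes of the pathway that were lower numbered 13, against 7 with library size alone, 7 by limma on log2(FPKM + 1), 8 with the replicate block and 8 to 13 with 1 library left out, the lowest without control replicate 2 or 3. Calls among all genes changed too. They numbered 6257 with library size alone (60.2% higher) and 6263 by limma on log2(FPKM + 1) (59.5% higher), against 6372 (51.5% higher). Without control replicate 2 or 3 they numbered 4748 and 4801. With the replicate block 10 of the 35 tested genes were higher and 9 lower. Among all 12292 tested genes 5444 were then called, 52.1% of them higher, against 6372 without the block. Deviations of same-numbered libraries from their group means correlated at -0.30, -0.28 and 0.30, and those of control replicate 1 and knockdown replicate 2 at 0.45. Because these 2 libraries stood apart and weigh on every such value, the correlations cannot show whether the numbers pair libraries. Library size alone moved the median of all genes by 0.09 and made 60.2% of all calls higher ones, against 51.5%, with 11 of these enzymes higher and 9 lower. Uncalled genes near 0 changed sign: with library size alone MDH1 (0.07), SUCLA2 (0.03) and PDHB (0.04), by limma on log2(FPKM + 1) MDH1 (0.03), SUCLA2 (0.03) and PDHB (0.04), and without both libraries that stood apart PDK2 (-0.13), MDH1 (0.14), IDH3G (-0.06) and SUCLA2 (0.18). With 1 library left out, PDK2 ran from -0.02 to 0.34, MDH1 from -0.13 to 0.13, IDH3G from -0.03 to 0.16, SUCLA2 from -0.14 to 0.09, DLAT from -0.03 to 0.07, PDHB from -0.16 to 0.04 and PDP2 from -0.02 to 0.14; the cause was not tested. OGDHL, with at most 16 counts in a library, was too shallow to test.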
